A study of Mus musculus with 8 samples.

Results

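RNA sequencing of mouse embryos was used to compare the inner cell mass (ICM) of diapaused blastocysts, in 3 libraries, with post-implantation epiblast, in 2 libraries. These are 5 of the 8 libraries of the series, and the remaining 3, of ICM that had not entered diapause, took no part. A gene was compared when 2 or more of the 5 libraries listed it at 1 or higher, which left 16626 of 38924. Per the labels' protocols each library, a biological replicate, was made from about 50 pooled embryos of C57BL/6 mothers, and the labels give the sex as female. Diapause was induced on day 3.5 by an intraperitoneal dose of tamoxifen and 0.5 mg of Depo Provera under the skin of superovulated, mated females, and the blastocysts were flushed out 5 days later. Epiblast was taken from implanted embryos of day 6.5, for which no hormone treatment is stated. The trophectoderm of the blastocysts was lysed with antibody and complement, a step stated for blastocysts only. Age, hormone treatment and way of isolation therefore changed together, and what each contributed to a difference between the groups cannot be told apart. The RNA of both groups was amplified with WT-Ovation Pico, a kit for very small inputs.

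Diapause is a reversible arrest in which the blastocyst stays unattached in the uterus, with a pluripotent ICM that has nearly stopped dividing. The pluripotent cells of the blastocyst are called naive and depend in culture on LIF and its transducer STAT3, and after implantation the epiblast becomes a proliferating epithelium in a primed state, held by FGF and Nodal signals, that is about to form the germ layers. Primed cells are known for a strongly glycolytic metabolism and for rising de novo DNA methylation. The ICM of a late blastocyst also holds primitive endoderm, a second lineage that secretes a laminin and collagen basement membrane.

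Levels are given in the authors' adjusted TPM, always in the order of replicates 1 to 3 of diapaused ICM and of replicates 1 and 2 of epiblast. Differences are on the scale log2(adjusted TPM + 1), as diapaused ICM minus epiblast with the SE of limma's moderated fit, so that a positive value means higher in diapaused ICM. Read totals are not part of the values and the depth is unknown. The summed values ranged from 925054 to 1179026 and 14991 to 15130 genes reached 1 in each library. Pearson's r of log2 levels across genes was 0.945 to 0.955 among diapaused libraries, 0.969 between the epiblast libraries and 0.809 to 0.838 between the groups, and genes are not independent replicates. The p-values measure the spread between these pools.

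The labels were checked against marker genes. The summed level of naive pluripotency markers was 1626 to 1888 in diapaused ICM against 423 and 322 in epiblast, and that of primed epiblast markers 184 to 221 against 1328 and 811. Primitive endoderm markers differed too, with a summed level of 2589 to 2961 in diapaused ICM against 122 and 126 in epiblast. Visceral endoderm markers summed to 644 to 657 against 331 and 489.9, most of it from Rhox5, and 5 of 11 tested passed an adjusted p of 0.05 as higher in diapaused ICM and 4 as higher in epiblast, beside 16.3% and 17.7% of all genes. The serum protein gene Ttr was listed at 0.00559, 0.00572 and 0.196 against 6.33 and 39.7. The protease inhibitor gene Spink3 stood at 0.04002, 0.166 and 0.785 against 10.4 and 52.1, so these 2 markers were detected in epiblast, mainly in replicate 2. Of the 5 called the other way, Apoe was at 54.1, 55.2 and 57.4 against 11.7 and 8.59 and Cubn at 4.22, 6.995 and 9.65 against 1.22 and 1.74. Trophectoderm and extraembryonic ectoderm markers (5 of 17 higher in diapaused ICM, 3 in epiblast) summed to 94.3 to 252 against 93.02 and 90.5. Diapaused replicate 3 was at the top. Krt18 stood there at 121 against 17.2 and 17.5 in the other diapaused libraries and 18.5 and 30.98 in epiblast. Those higher in epiblast included Eomes and Krt19, given below. Blood, endothelial and immune markers (2 and 0 of 3) summed to 52.003 to 136 against 41.3 and 8.03. Decidual markers (0 and 0 of 4) summed to 15.9 to 20.1 against 10.003 and 11.5. The 2 called were Laptm5, at 53.2, 20.8 and 21.5 against 0.992 and 1.07, and Cd68, at 80.6, 29.6 and 25.3 against 1.31 and 2.92. The other tested member of the blood list was lower in diapaused ICM (-2.24) and did not pass. Ptprc, C1qa, Dcn and Pgr stood below 1 in all 5 libraries. The calls of Laptm5, Cd68, Apoe and Cubn are given for the fit of all 5 libraries only. In such pools fewer cells of a type and less RNA per cell cannot be told apart. What primitive endoderm, visceral endoderm and extraembryonic ectoderm, whose markers were detected as given above, contributed to the differences given here was not tested. Rhox5 (0.66 to 0.97) was not called with any 1 library left out.

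**Figure D1:**
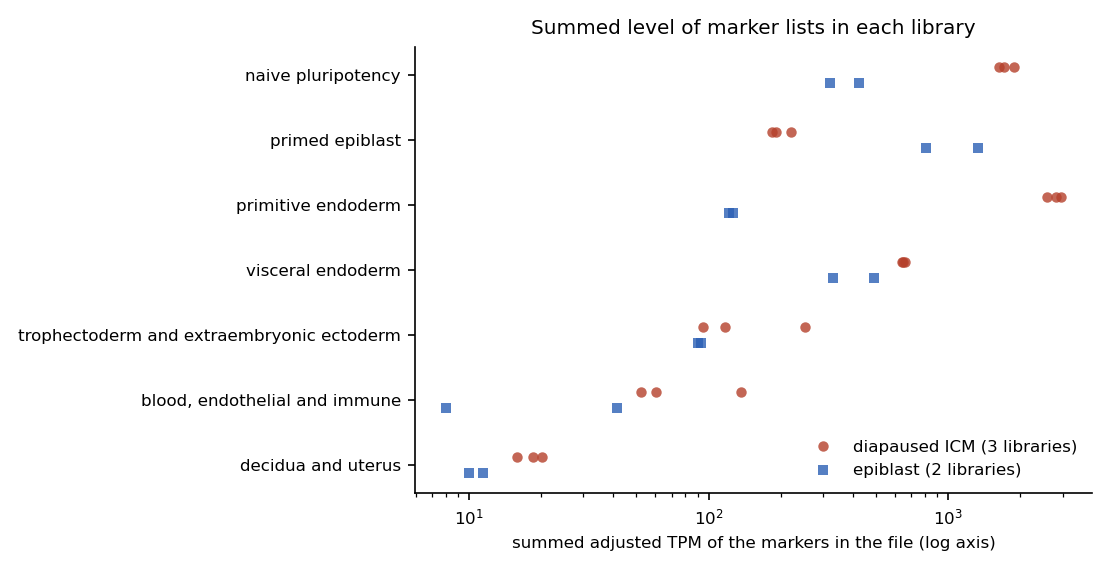
Summed adjusted TPM (log axis) of 7 marker lists in each library, with circles for the 3 diapaused ICM libraries and squares for the 2 epiblast libraries. Naive and primitive endoderm markers are higher in every diapaused library (2589 to 2961 against 122 and 126 for primitive endoderm) and primed markers in every epiblast library.

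The groups were far apart. Of the 16626 genes tested, 5642 (33.9%) passed an adjusted p of 0.05, 2707 (16.3%) higher in diapaused ICM and 2935 (17.7%) higher in epiblast. At least 2-fold differences were shown by 2370 of the former and 2231 of the latter. The groups did not overlap at 10536 genes (63.4%), which included all 5642 that passed, so each library of the higher group lay above each of the other group for every gene given below as higher. The median difference over all genes tested was -0.14. The epiblast group rests on 2 libraries: without epiblast replicate 1 the test called 1718 genes, 1063 of them higher in diapaused ICM and 655 higher in epiblast, and without replicate 2 it called 2444, 1307 and 1137. Part of that loss on the epiblast side is set by the filter, since a gene found in epiblast alone cannot reach 2 libraries. For such genes the fit without that library was repeated over the same 16626 genes, a choice made after seeing the data. List counts that a left-out library moved by over 1.5 times, and named genes that it left uncalled, are given at the end of each account with their difference in parentheses.

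**Figure D2:**
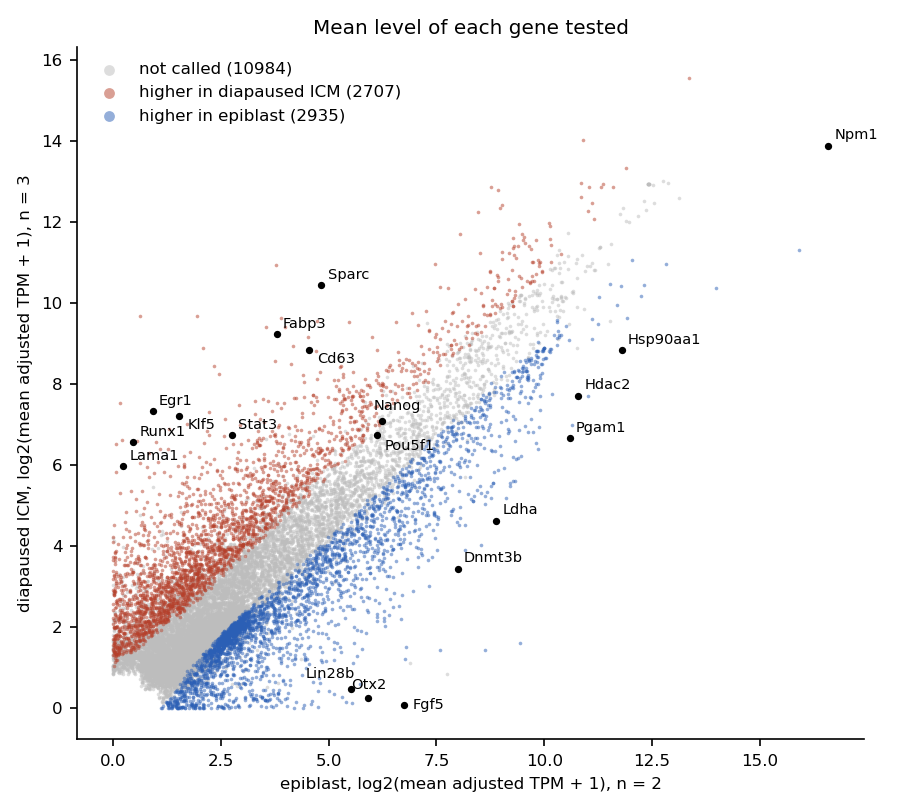
Mean level of each of the 16626 genes tested, as log2(mean adjusted TPM + 1), in epiblast (horizontal axis, n = 2) and diapaused ICM (vertical axis, n = 3), coloured by call. The 2707 genes higher in diapaused ICM lie above the grey band and the 2935 higher in epiblast below it. Fgf5, Otx2 and Lin28b lie at the bottom, and Egr1, Runx1 and Lama1 at the left.

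The highest difference among well expressed genes was that of Egr1 (ENSMUSG00000038418), a transcription factor gene switched on within minutes by growth factor signals. Its level was 179, 134 and 165 in the diapaused libraries and 1.395 and 0.386 in the epiblast libraries, a difference of 6.45 ± 0.31 (adjusted p = 0.000149). Next came Mras, a RAS-related GTPase gene, at 62.98, 90.9 and 118 against 0.00034 and 0.0996, and Runx1, a transcription factor gene best known from blood formation, at 84.97, 97.5 and 98.8 against 0.326 and 0.442 (6.10 ± 0.23, adjusted p = 8.44e-05). The remaining 9 of the 12 highest were Egr2, Lama1, Klf5, Sparc, Fbxo15, Spp1, Fabp3, Pros1 and Shisa5, with differences of 5.75 down to 5.26. Among these Shisa5 was uneven, at 887, 306 and 829 against 14.6 and 15.3, with diapaused replicate 2 the lowest of its group and still far above epiblast.

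The lowest difference was that of Fgf5 (ENSMUSG00000029337), the growth factor gene that marks the post-implantation epiblast. Fgf5 was listed at 0.000404, 0.154 and 0.001204 in diapaused ICM against 145 and 68.9 in epiblast (-6.59 ± 0.34, adjusted p = 0.000154). Otx2, a homeobox gene of the primed state, was at 0.0786, 0.442 and 0.04701 against 64.9 and 53.04. The tight junction gene Cldn6 followed at 2.32, 0.213 and 1.38 against 135 and 79.2. The other 9 of the 12 lowest were Stxbp6, Cald1, Tspan7, Pim2, Lin28b, Gli3, St6gal1, Sema6a and Vrtn, with differences of -5.31 to -4.73. Gli3, a transcription factor gene of hedgehog signalling, stood at 0.176, 0.0154 and 0.401 against 31.7 and 45.3, and Vrtn, known for its effect on vertebral number, at 0.00219, 0.0102 and 0.00233 against 30.2 and 21.8. All 24 genes of these lists had groups that did not overlap, which their choice required.

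Naive pluripotency genes were nearly all higher in diapaused ICM. Of 27 members tested, 24 were higher in diapaused ICM and 1 in epiblast, beside 16.3% and 17.7% of all genes. The list's median difference was 2.44 beside -0.14 for all genes. Klf4, a reprogramming factor gene, was at 24.04, 38.4 and 36.3 against 0.9297 and 0.509, and its relative Klf5 at 154, 119 and 166 against 2.39 and 1.404 (5.68 ± 0.28, adjusted p = 0.00015). Tfcp2l1, a LIF-responsive transcription factor gene, was at 69.3, 55.7 and 57.98 against 0.756 and 0.707 (5.16 ± 0.23, adjusted p = 0.000112). Even the lowest diapaused library was more than 10 times the higher epiblast library for each of these 3 factors. The nuclear receptor gene Esrrb was even across replicates, at 34.9, 36.2 and 35.5 against 2.24 and 2.23 (3.50 ± 0.22). Dppa3, a maternal and germ cell gene, stood at 45.9, 59.6 and 44.2 against 3.68 and 2.31, and Fbxo15, an early reporter gene of pluripotency, at 136, 103 and 113 against 1.35 and 1.55. Zfp42, which encodes REX1, was low in both groups, at 5.62, 6.83 and 10.1 against 1.34 and 0.986 (1.95 ± 0.29, adjusted p = 0.00365). The naive list had 17 members higher in diapaused ICM and 0 in epiblast without epiblast replicate 1, and 17 and 1 without replicate 2.

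Not every gene of the naive list was a switch. Nanog, a core homeobox gene of both states, stood at 155, 119.8 and 132 against 80.3 and 69.3, a difference of 0.85 ± 0.24 (adjusted p = 0.0364). Sall4, a zinc finger gene also active in primed cells, was the exception in direction, at 100.1, 91.6 and 121 against 278 and 198 (-1.17 ± 0.27, adjusted p = 0.0175). Nanog (0.74 to 0.95) was not called with any 1 library left out and Sall4 (-0.93) without epiblast replicate 1. Nor was Nanog with the ICM libraries in the fit (0.85).

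In the core pluripotency list 3 of 15 genes were higher in diapaused ICM and 5 in epiblast, beside 16.3% and 17.7% of all genes, with a median of -0.15. Pou5f1, the gene of OCT4, was at 102, 115 and 100.5 against 70.5 and 66.2. The groups did not overlap, and the difference of 0.62 ± 0.23 did not pass (adjusted p = 0.0717). Sox2 was low throughout, at 3.602, 1.37 and 1.34 against 4.68 and 0.994, and did not pass (adjusted p = 0.789). Within this list the RNA-binding genes Lin28a and Lin28b, which block maturation of let-7 miRNAs, were both higher in epiblast but on different scales. Lin28a was at 56.96, 72.9 and 64.9 against 141 and 125 (-1.03 ± 0.24, adjusted p = 0.0189), and Lin28b went from 0.6802, 0.0663 and 0.406 to 42.9 and 46.8 (-5.07 ± 0.27, adjusted p = 0.000154). Dppa2, a chromatin gene of early embryos, was higher in diapaused ICM, at 8.28, 9.09 and 10.3 against 0.797 and 0.846. The core pluripotency list had 1 member higher in diapaused ICM and 0 in epiblast without epiblast replicate 1, and 1 and 2 without replicate 2. Lin28a (-1.12 to -0.94) was not called without either epiblast library.

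Genes of the primed epiblast went the other way. Of 28 tested, 19 were higher in epiblast and 5 in diapaused ICM, beside 17.7% and 16.3% of all genes. The list's median was -2.49. The count higher in diapaused ICM was 3 with rescaling without the abundant genes and 3 with a common total. Over the same genes, 13 members were called higher in epiblast without epiblast replicate 1 and 19 without replicate 2. The POU factor gene Pou3f1 was uneven between the epiblast libraries, at 0.000744, 0.000849 and 0.0717 against 11.1 and 1.86 (-2.52 ± 0.58, adjusted p = 0.0178). Pim2, a kinase gene, was at 0.545, 0.302 and 0.636 against 66.3 and 37.95, and Sfrp2, a secreted Wnt antagonist gene, at 0.0252, 0.00396 and 0.0139 against 10.9 and 13.1. The list also held genes that were higher in diapaused ICM. Epha4, an ephrin receptor gene, was at 14.95, 14.3 and 16.4 against 0.575 and 0.723 (3.30 ± 0.22, adjusted p = 0.000267), Rbpj, the nuclear effector of Notch, at 26.9, 21.6 and 29.6 against 9.404 and 7.87, and Spry4, a feedback inhibitor gene of RAS signalling, at 23.8, 16.6 and 26.9 against 9.33 and 8.28. The primed epiblast list had 2 members higher in diapaused ICM and 7 in epiblast without epiblast replicate 1, and 1 and 9 without replicate 2. They were 3 and 19 without diapaused replicate 3. Pou3f1 (-1.48) was not called without epiblast replicate 1, Rbpj (1.37) without epiblast replicate 2 and Spry4 (1.16 to 1.31) without either epiblast library.

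**Figure D3:**
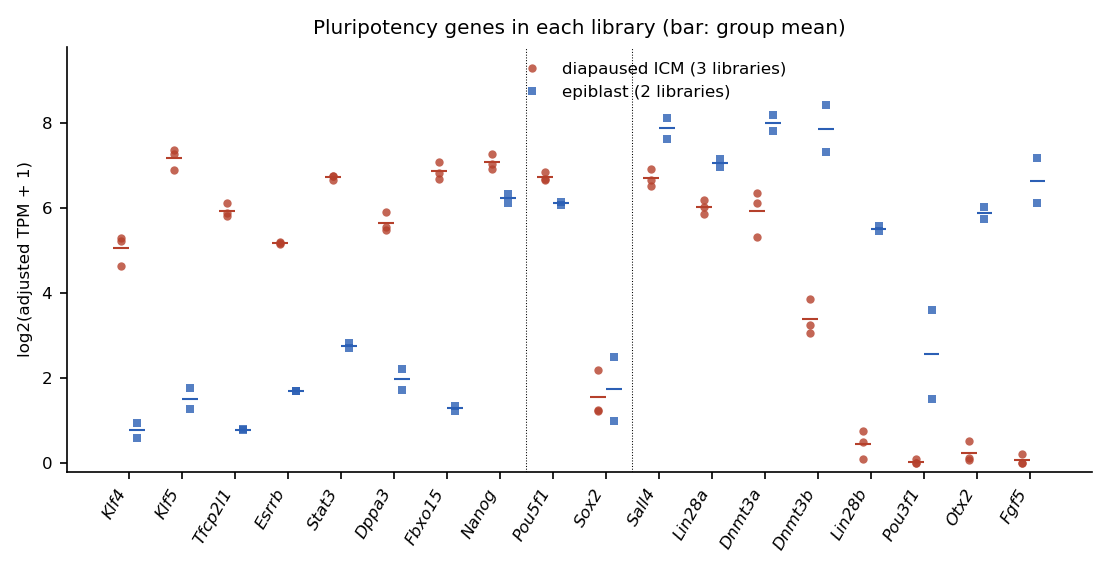
Level of 18 pluripotency genes in each library, as log2(adjusted TPM + 1), with circles for diapaused ICM, squares for epiblast and bars for group means. Of the naive genes on the left Nanog shows the smallest gap. Pou5f1 and Sox2 in the middle did not pass the test, and on the right Fgf5, Otx2, Pou3f1 and Lin28b lie near 0 in every diapaused library.

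Genes of the primitive streak were detected in epiblast at modest levels. Mixl1, a homeobox gene of the streak, was at 0.0143, 0.143 and 0.00423 against 14.2 and 11.3 (-3.70 ± 0.25, adjusted p = 0.000276), and Eomes, a T-box gene of streak and trophoblast, at 0.647, 1.32 and 1.52 against 19.6 and 8.39. T, the gene of brachyury, reached 1.52 and 2.18 in epiblast and 0.0633, 0.167 and 0.0306 in diapaused ICM (-1.38 ± 0.33, adjusted p = 0.0194). Mesp1, Tbx6 and Msgn1 of nascent mesoderm stood below 1 in all 5 libraries. Of 10 members tested 4 were higher in epiblast and 3 in diapaused ICM, beside 17.7% and 16.3% of all genes. The list's median was -0.08 beside -0.14 for all genes. Those higher in diapaused ICM were Ifitm1, Lefty2 and Sox17. The primitive streak list had 2 members higher in diapaused ICM and 2 in epiblast without epiblast replicate 1, and 1 and 2 without replicate 2. T (-1.55 to -1.21) and Sox17 (1.07 to 1.11) were not called without either epiblast library and Lefty2 (1.41) without epiblast replicate 2.

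Genes of the LIF receptor and its transducer were higher in diapaused ICM. Stat3 was at 101, 107 and 107 against 5.499 and 6.07 (3.97 ± 0.22, adjusted p = 0.000185). Lifr, the LIF receptor gene, was at 26.95, 19.5 and 22.3 against 1.43 and 2.305 (3.06 ± 0.26, adjusted p = 0.000609). The LIF and JAK-STAT3 list shares Tfcp2l1, Klf4 and Stat3 with the naive list, so the 2 counts are not separate. In it 8 of 15 tested members were higher in diapaused ICM and 1, Ctnnbip1, in epiblast, beside 16.3% and 17.7% of all genes. The list's median was 0.86. Quantile normalization called 2 members higher in epiblast. Ctnnbip1, whose product blocks beta-catenin, was at 1.98, 2.42 and 2.67 against 17.5 and 12.1. The LIF and JAK-STAT3 list had 5 members higher in diapaused ICM and 1 in epiblast without epiblast replicate 1, and 5 and 1 without replicate 2.

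In the FGF and ERK list 8 of 29 genes were higher in diapaused ICM and 5 in epiblast, beside 16.3% and 17.7% of all genes, with a median of 0.13. The ligand gene Fgf4, secreted by naive epiblast, was at 4.66, 4.29 and 10.1 against 1.29 and 0.839, and the receptor gene Fgfr2, a mark of primitive endoderm and trophectoderm, at 23.4, 15.8 and 27.4 against 7.93 and 4.15 (1.74 ± 0.35, adjusted p = 0.0112). On the epiblast side stood the ligand gene Fgf5 given above, Hras, which was uneven in diapaused ICM at 31.7, 9.05 and 37.3 against 106 and 107, and Dusp6. Dusp6 encodes a phosphatase of ERK that ERK itself induces, and was at 4.201, 2.21 and 2.94 against 20.04 and 16.04 (-2.23 ± 0.28, adjusted p = 0.00207). The FGF and ERK list had 1 member higher in diapaused ICM and 1 in epiblast without epiblast replicate 1, and 0 and 2 without replicate 2. Fgf4 (1.60 to 1.92) and Hras (-2.21 to -2.19) were not called without either epiblast library and Fgfr2 (1.34) without epiblast replicate 2.

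Immediate-early genes, which ERK and serum response factor switch on without new protein synthesis and which also respond to dissociation of tissue, were higher in diapaused ICM at 12 of 16 members tested and at none in epiblast (median 2.01). Of all genes, 16.3% were higher in diapaused ICM and 17.7% in epiblast. Egr2 stood at 57.8, 58.97 and 49.4 against 0.0562 and 0.0333 (5.75 ± 0.23, adjusted p = 8.44e-05), while Fos was far lower, at 4.14, 7.97 and 5.47 against 0.872 and 0.584 (1.96 ± 0.30, adjusted p = 0.00423). Btg2, an antiproliferative gene, was at 9.76, 9.66 and 7.97 against 0.183 and 0.5499. Myc, counted here too, was at 28.6, 20.6 and 11.2 against 12.3 and 6.16. Its groups overlapped and it did not pass (adjusted p = 0.112). Over the same 16626 genes the immediate-early list had 8 members higher in diapaused ICM without epiblast replicate 1 and 6 without replicate 2.

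The promoters of this list were searched for the CArG box, the binding site of serum response factor, in RefSeq promoter sequences of build GRCm38.p6 that run from 250 bases before to 50 after a gene's start. Of the 15 members matched there, 3 (20%) held the box on either strand, beside 1.81% of all 27025 genes in the table and 1.85% of the 7681 tested genes that it holds. The 3 were Egr2, Zfp36 and Srf, which were all higher in diapaused ICM. Zfp36, an mRNA decay factor gene, was at 9.27, 6.29 and 14.8 against 2.68 and 0.754, and Srf, the gene of serum response factor, at 14.4, 12.2 and 21.04 against 6.92 and 7.92. These genes were chosen by the match, after their values had been seen. Their stretches before the start, at chr10:67537434-67537543 (plus strand), chr7:28379237-28379346 (minus strand) and chr17:46556175-46556284 (minus strand), are printed 5′ to 3′ on the gene's strand with the box in capitals. Zfp36 (1.52) was not called without epiblast replicate 2 and Srf (0.77 to 1.06) without diapaused replicate 1 or 3, or either epiblast library. Nor was Srf with quantile normalization (0.82), rescaling without the abundant genes (0.96), a common total (0.98) and the ICM libraries in the fit (0.97).
Egr2: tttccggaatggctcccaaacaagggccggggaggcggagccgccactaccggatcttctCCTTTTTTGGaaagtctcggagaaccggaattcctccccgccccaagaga
Zfp36: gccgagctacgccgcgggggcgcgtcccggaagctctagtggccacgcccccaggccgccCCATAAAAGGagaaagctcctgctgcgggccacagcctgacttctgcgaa
Srf: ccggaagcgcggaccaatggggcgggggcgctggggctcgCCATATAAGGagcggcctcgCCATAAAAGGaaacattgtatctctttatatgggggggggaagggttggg
A match is a description of these letters and shows no binding.

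Of 27 Wnt pathway genes 8 were higher in diapaused ICM and 6 in epiblast (median 0.24), beside 16.3% and 17.7% of all genes. Axin2, a feedback target of beta-catenin, was at 20.05, 32.8 and 40.5 against 2.31 and 2.67 (3.15 ± 0.33, adjusted p = 0.00113). The secreted antagonist genes took opposite sides: Dkk1 was at 11.2, 10.3 and 9.92 against 1.09 and 0.852 and Sfrp1 at 41.2, 34.3 and 36.4 against 10.3 and 7.07, whereas Sfrp2 was an epiblast gene. Ctnnb1, the gene of beta-catenin itself, was at 67.9, 67.3 and 93.4 against 399.9 and 238 (-2.02 ± 0.31, adjusted p = 0.00443), and the nuclear effector gene Lef1 at 0.345, 2.18 and 0.488 against 15.4 and 6.38. The Wnt list had 3 members higher in diapaused ICM and 1 in epiblast without epiblast replicate 1, and 4 and 3 without replicate 2. Its counts were 7 and 3 without diapaused replicate 3. Lef1 (-1.99) was not called without epiblast replicate 1.

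Nodal, the ligand gene that maintains the primed epiblast, was below the filter. It was listed at 0.911, 0.435 and 1.66 in diapaused ICM and 0.898 and 0.79002 in epiblast. Its feedback inhibitor genes Lefty1 and Lefty2 were low and higher in diapaused ICM, Lefty2 at 6.22, 8.53 and 5.02 against 1.799 and 1.39 and Lefty1 at 2.91, 1.38 and 1.45 against 0.178 and 0.0784. Fst, the gene of the activin inhibitor follistatin, was higher in epiblast, at 0.493, 0.159 and 1.49 against 11.1 and 8.85 (-2.75 ± 0.36, adjusted p = 0.00239). In all 3 of 18 Nodal and activin genes tested were higher in diapaused ICM and 2 in epiblast, beside 16.3% and 17.7% of all genes, and quantile normalization called 2 and 3, and a common total left 1 in epiblast. The Nodal and activin list had 1 member higher in diapaused ICM and 1 in epiblast without epiblast replicate 1, and 0 and 1 without replicate 2. Lefty1 (1.27 to 1.40) was not called without either epiblast library.

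Growth control by nutrients runs through mTORC1, a kinase complex that promotes translation, and AMPK, a kinase switched on when ATP is scarce. Mtor itself stood at 6.11, 2.77 and 3.77 against 4.24 and 3.198 and did not pass (adjusted p = 0.82). Of 32 genes of the mTOR complexes and their activators tested, 7 were higher in diapaused ICM and 3 in epiblast (median 0.35), beside 16.3% and 17.7% of all genes, and quantile normalization called 7 and 5. Rptor, the scaffold gene of mTORC1, was at 6.03, 5.53 and 7.65 against 1.33 and 1.35 (1.65 ± 0.24, adjusted p = 0.00321), whereas Rheb, the GTPase gene that activates it, was at 10.9, 9.16 and 11.4 against 18.96 and 31.9 and the cap-binding gene Eif4e at 32.5, 34.7 and 36.98 against 100.04 and 96.1 (-1.47 ± 0.23, adjusted p = 0.00433). Akt2, a kinase gene upstream of mTORC1, was higher in diapaused ICM, at 63.8, 25.5 and 34.7 against 13.8 and 8.84, and so was Rictor, the scaffold gene of mTORC2, at 3.404, 11.01 and 6.32 against 1.73 and 0.813. The mTOR activator list had 2 members higher in diapaused ICM and 2 in epiblast without epiblast replicate 1, and 2 and 5 without replicate 2. The counts became 8 and 1 without diapaused replicate 2 and 3 and 2 without diapaused replicate 3. Rheb (-1.08 to -0.80) was not called without diapaused replicate 2 or epiblast replicate 2 and Akt2 (1.42 to 2.00) and Rictor (1.42 to 2.01) without diapaused replicate 3, or either epiblast library.

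Genes that restrain mTORC1 or its output showed a large difference at Pdcd4, an inhibitor of the helicase eIF4A. Pdcd4 was at 503, 565 and 398 against 14.04 and 20.3 (4.76 ± 0.28, adjusted p = 0.000201). Sesn2, a leucine sensor gene, was at 5.87, 5.44 and 5.35 against 0.879 and 0.8001, and Tsc1 at 5.19, 5.32 and 7.29 against 1.96 and 2.08, while its partner Tsc2, at 3.57, 3.505 and 4.28 against 2.34 and 2.79, did not pass (adjusted p = 0.181). Deptor, at 11.6, 7.82 and 10.7 against 7.27 and 9.96, and Ddit4, at 1.83, 0.421 and 2.75 against 1.81 and 2.898, overlapped between the groups and did not pass. The list counted 4 of 16 higher in diapaused ICM and 2 in epiblast, beside 16.3% and 17.7% of all genes. The mTOR restraint list had 2 members higher in diapaused ICM and 0 in epiblast without epiblast replicate 1, and 2 and 2 without replicate 2. Tsc1 (1.16 to 1.22) was not called without either epiblast library.

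LKB1 and AMPK genes leaned to diapaused ICM, with a median of 1.20 over 13 tested members. They were called higher there at 7 and in epiblast at 0, beside 16.3% and 17.7% of all genes. The catalytic subunit genes differed: Prkaa2 was at 6.72, 5.38 and 6.26 against 0.149 and 0.143 (2.63 ± 0.23, adjusted p = 0.000661), and Prkaa1 at 7.95, 3.83 and 5.03 against 3.49 and 3.03, which did not pass (adjusted p = 0.173). Prkab1, a scaffold subunit gene, was at 26.05, 30.4 and 27.6 against 4.603 and 4.59 (2.37 ± 0.22, adjusted p = 0.00084). Stk11, the gene of the upstream kinase LKB1, was at 29.9, 23.8 and 28.7 against 21.9 and 17.2 and did not pass (adjusted p = 0.174).

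Autophagy and lysosome genes were mostly higher in diapaused ICM. Of 58 members tested 36 were higher in diapaused ICM and 2 in epiblast, beside 16.3% and 17.7% of all genes. The list's median was 1.37. Cd63, a membrane protein gene of late endosomes, was at 488, 471 and 411 against 22.9 and 21.9 (4.29 ± 0.23, adjusted p = 0.000154). The protease genes Ctsa, at 115, 212 and 127 against 7.89 and 9.76 (3.90 ± 0.33), and Ctsl, at 328, 313 and 392 against 36.6 and 39.4 (3.14 ± 0.23), were likewise separated. The 2 members higher in epiblast were Tfe3, a transcription factor gene that drives lysosomal genes, at 3.27, 5.104 and 5.27 against 17.3 and 14.1, and Laptm4a, at 47.99, 35.9 and 43.3 against 159 and 136. Primitive endoderm, whose markers summed to 2589 to 2961 in diapaused ICM against 122 and 126 in epiblast, is an endocytic tissue, and its part in this list was not tested. The lysosome list had 20 members higher in diapaused ICM and 1 in epiblast without epiblast replicate 1, and 24 and 2 without replicate 2. Its counts were 32 and 4 without diapaused replicate 3. Tfe3 (-1.46) was not called without epiblast replicate 1.

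The core of the CLEAR element, the palindrome TCACGTGA that TFE3 and its relatives bind, was searched in the same promoter table, where a palindrome reads alike on both strands. Of 45 lysosome list members matched, 8 (17.8%) held it, beside 1.13% of all 27025 genes and 2.49% of the 7681 tested genes in the table. Among members higher in diapaused ICM the motif was found in 6 of 27 matched (22.2%), and among members tested that did not pass in 2 of 14 (14.3%). The 6 were Ctsa, Ctsd, Mcoln1, Atp6v1a, Atp6v0d1 and Atp6v0e, named for the match after their values had been seen. Ctsd, the gene of cathepsin D, was at 28.2, 25.3 and 48.5 against 10.7 and 12.7. Mcoln1, a lysosomal calcium channel gene, was at 42.6, 85.9 and 77.2 against 8.56 and 6.37, and Atp6v1a, a subunit gene of the proton pump, at 100.1, 97.7 and 113 against 18.2 and 17.1. Stretches before the start are shown for the 4 genes with a motif there, at chr2:164833700-164833772 (plus strand), chr7:142387879-142387986 (minus strand), chr8:3500413-3500518 (plus strand) and chr16:44139344-44139451 (minus strand) of GRCm38.p6, 5′ to 3′ on the gene's strand with the motif in capitals. Ctsd (1.29 to 1.52), Atp6v0d1 (1.59 to 1.86) and Atp6v0e (1.44 to 1.48) were not called without either epiblast library.
Ctsa: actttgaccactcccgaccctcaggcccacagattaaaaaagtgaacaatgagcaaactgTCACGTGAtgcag
Ctsd: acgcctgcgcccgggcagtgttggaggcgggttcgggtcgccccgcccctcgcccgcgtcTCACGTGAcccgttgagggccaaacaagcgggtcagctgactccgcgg
Mcoln1: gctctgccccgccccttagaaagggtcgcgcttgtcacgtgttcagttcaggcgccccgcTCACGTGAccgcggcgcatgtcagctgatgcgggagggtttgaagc
Atp6v1a: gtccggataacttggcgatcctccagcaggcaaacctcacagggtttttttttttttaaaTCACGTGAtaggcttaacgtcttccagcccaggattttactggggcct
The motif contains the ACGTG searched further below.

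Glycolysis genes were mostly higher in epiblast. Of 31 genes of glucose transport, glycolysis and lactate tested, 16 were higher in epiblast and 5 in diapaused ICM, with a median of -1.27. Of all genes, 17.7% were higher in epiblast and 16.3% in diapaused ICM. Ldha, the lactate dehydrogenase gene of lactate producing cells, was at 20.2, 14.9 and 35.8 against 499 and 446 (-4.35 ± 0.38, adjusted p = 0.00061), and Ldhb at 8.32, 14.7 and 23.6 against 123 and 78.3 (-2.69 ± 0.44, adjusted p = 0.00533). Pgam1, a late glycolytic enzyme gene with processed copies in the genome that could share its reads, was at 107, 62.97 and 132 against 2004 and 1077. The lactate exporter gene Slc16a3 was close to absent in diapaused ICM, at 0.2496, 0.0467 and 0.00836 against 13.997 and 21.8 (-4.07 ± 0.28, adjusted p = 0.000282). The glycolysis list had 3 members higher in diapaused ICM and 8 in epiblast without epiblast replicate 1, and 5 and 10 without replicate 2. Ldhb (-2.37) was not called without epiblast replicate 1.

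Entry of glucose was divided between transporters. Slc2a1, the widely used transporter gene, was at 24.8, 28.8 and 59.8 against 149 and 146 (-2.05 ± 0.39, adjusted p = 0.00955), whereas Slc2a3, a high affinity transporter gene, was at 162, 133 and 200.1 against 36.5 and 45.7 (1.97 ± 0.27, adjusted p = 0.00296). Hk2, which encodes the hexokinase that traps glucose, was at 287, 216 and 392 against 269 and 273 and did not pass (adjusted p = 0.817). Pdk1, an inhibitor gene of pyruvate entry into mitochondria, was at 2.28, 2.17 and 3.38 against 5.09 and 4.13, with no overlap but no pass (adjusted p = 0.0886). The other genes higher in diapaused ICM included Pfkfb2, at 10.1, 8.95 and 9.33 against 0.695 and 1.16, and the neuronal enolase gene Eno2, at 3.2996, 3.71 and 4.69 against 0.289 and 0.204. Slc2a1 (-2.06 to -2.03) was not called without either epiblast library.

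The letters ACGTG, the core of the site bound by hypoxia inducible factors, were searched on both strands of the same promoters. Of 31 members matched 18 (58.1%) held them, beside 21.8% of all genes in the table and 30.8% of the tested genes in it. By direction they were found in 12 of 16 members higher in epiblast (75%), 1 of 4 higher in diapaused ICM (25%) and 4 of 9 that did not pass (44.4%). So short a motif is common. Sequences before the start are shown for 3 genes higher in epiblast, at chr7:46845710-46845803 (plus strand), chrX:106186909-106187013 (plus strand) and chr11:120948993-120949066 (plus strand) of GRCm38.p6, with each match on either strand in capitals, as examples picked after their values were seen. Pgk1, an ATP producing enzyme gene, was at 41.8, 36.04 and 53.96 against 609 and 563.
Ldha: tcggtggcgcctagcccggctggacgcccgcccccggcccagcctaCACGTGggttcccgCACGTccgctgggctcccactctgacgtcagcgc
Pgk1: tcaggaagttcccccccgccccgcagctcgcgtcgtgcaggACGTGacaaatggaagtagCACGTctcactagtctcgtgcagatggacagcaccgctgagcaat
Slc16a3: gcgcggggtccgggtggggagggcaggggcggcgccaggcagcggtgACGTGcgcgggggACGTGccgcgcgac
Where the run in capitals is CACGTG, the 2 strands match at overlapping letters.

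**Figure D4:**
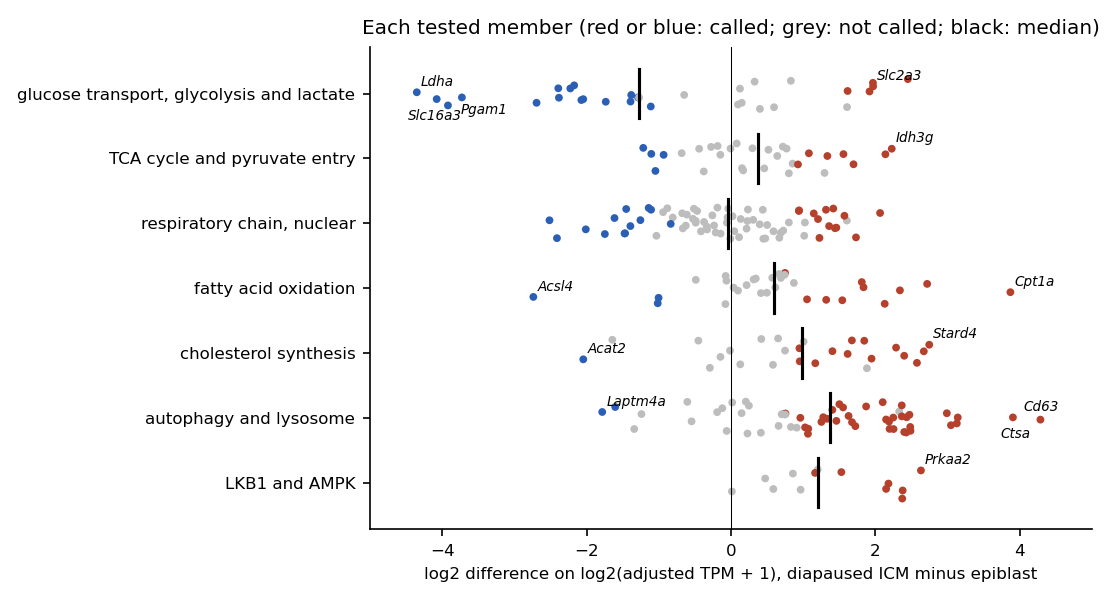
Log2 difference, diapaused ICM minus epiblast, of each tested member of 7 lists, red where called higher in diapaused ICM, blue where called higher in epiblast and grey where not called, with the list's median as a black line. The glycolysis median lies at -1.27 and the lysosome and AMPK medians at 1.37 and 1.20, while the respiratory chain is centred near 0.

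Fatty acid oxidation genes leaned to diapaused ICM, with 10 of 30 higher there and 3 higher in epiblast, beside 16.3% and 17.7% of all genes. Their median was 0.59. Cpt1a, the gate for entry of long fatty acids into mitochondria, was at 20.3, 25.96 and 19.7 against 0.573 and 0.553 (3.87 ± 0.23, adjusted p = 0.000222). Acadm, a first step enzyme gene for medium chains, was at 33.7, 37.1 and 28.3 against 6.18 and 5.22. Cpt2, which acts after Cpt1a, was on the other side, at 1.81, 2.79 and 1.996 against 3.92 and 7.35 (-1.01 ± 0.31, adjusted p = 0.042), and so was the acyl-CoA synthetase gene Acsl4, at 0.253, 1.23 and 2.57 against 17.5 and 10.2. The fatty acid oxidation list had 5 members higher in diapaused ICM and 0 in epiblast without epiblast replicate 1, and 7 and 1 without replicate 2. Its counts were 8 and 1 without diapaused replicate 3. Cpt2 (-1.40 to -0.63) was not called without diapaused replicate 1 or 3, or either epiblast library and Acsl4 (-2.37) without epiblast replicate 1. Nor was Cpt2 with a pseudocount of 5 (-0.55), quantile normalization (-1.002), a common total (-0.99) and the ICM libraries in the fit (-1.01).

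Of 13 lipid droplet and lipolysis genes 2, Fabp3 and Plin2, were higher in diapaused ICM and 2, Fabp5 and Hilpda, in epiblast, beside 16.3% and 17.7% of all genes. Fabp3, a fatty acid binding protein gene, was at 544, 664 and 602 against 9.72 and 16.1 (5.48 ± 0.28, adjusted p = 0.000154), while its relative Fabp5 was an epiblast gene, at 23.9, 23.6 and 17.4 against 58.2 and 63.3. The droplet coat gene Plin2 was at 29.1, 14.7 and 29.5 against 3.75 and 4.01 (2.32 ± 0.35, adjusted p = 0.00382), and the lipase gene Pnpla2, at 7.41, 3.39 and 6.49 against 2.16 and 2.61, did not pass (adjusted p = 0.0617). Fasn, the fatty acid synthase gene, was at 10.2, 13.3 and 14.04 against 3.12 and 3.26, one of 5 of 13 synthesis genes higher in diapaused ICM, with 0 in epiblast, and over the same 16626 genes the first count was 4 without epiblast replicate 1 and 3 without replicate 2. The lipid droplet list had 2 members higher in diapaused ICM and 1 in epiblast without epiblast replicate 1, and 2 and 1 without replicate 2. The counts became 3 and 1 without diapaused replicate 2 and 2 and 1 without diapaused replicate 3. Fabp5 (-1.40) was not called without epiblast replicate 2 and Hilpda (-1.27 to -0.87) without diapaused replicate 2 or diapaused replicate 3 or epiblast replicate 1.

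Of 26 cholesterol genes 13 were higher in diapaused ICM and 1, the thiolase gene Acat2, in epiblast, beside 16.3% and 17.7% of all genes. The list's median was 0.98. The sterol sensor gene Insig1 was at 59.6, 25.1 and 52.1 against 6.18 and 5.59 (2.67 ± 0.39, adjusted p = 0.00351). Diapaused replicate 2 was the lowest of its group for Insig1, yet each diapaused library was above both epiblast libraries. The cholesterol list had 6 members higher in diapaused ICM and 1 in epiblast without epiblast replicate 1, and 8 and 1 without replicate 2.

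The tricarboxylic acid cycle gave 7 of 30 members higher in diapaused ICM and 4 in epiblast (median 0.38), beside 16.3% and 17.7% of all genes. The subunits of 1 enzyme, NAD-dependent isocitrate dehydrogenase, were on both sides: Idh3g was at 168, 367 and 303 against 53.2 and 58.7 and Idh3b at 106, 36.8 and 78.3 against 12.98 and 16.3, whereas the catalytic subunit gene Idh3a was at 4.38, 4.08 and 5.601 against 10.97 and 10.4 (-1.05 ± 0.23, adjusted p = 0.016). Nuclear genes of the respiratory chain were called about as often as all genes in each direction, with 13 of 73 higher in diapaused ICM and 13 in epiblast, beside 16.3% and 17.7% of all genes, and a median of -0.05, on the other side of 0 under quantile normalization (0.03). Its extremes were the cytochrome oxidase gene Cox6a1, at 221, 272 and 260.2 against 69.6 and 50.02, and Atp5g3, which encodes a subunit of the ATP synthase ring, at 34.4, 35.9 and 35.4 against 274 and 154. Of 13 genes on mitochondrial DNA tested 4 were higher in diapaused ICM, among them mt-Co1 at 9133, 4942 and 4870.4 against 1802 and 1889.6, and 1, mt-Nd2, in epiblast, and quantile normalization called 5 and 0. The tricarboxylic acid cycle list had 2 members higher in diapaused ICM and 0 in epiblast without epiblast replicate 1, and 3 and 0 without replicate 2. The respiratory chain list had 4 members higher in diapaused ICM and 2 in epiblast without epiblast replicate 1, and 5 and 11 without replicate 2. The mitochondrial DNA list had 0 members higher in diapaused ICM and 0 in epiblast without epiblast replicate 1, and 1 and 0 without replicate 2. They were 4 and 0 without diapaused replicate 2 and 5 and 0 without diapaused replicate 3. Idh3b (1.99 to 2.29) and Idh3a (-1.08 to -1.01) were not called without either epiblast library, mt-Co1 (1.68) without epiblast replicate 1 and mt-Nd2 (-1.10 to -0.80) without diapaused replicate 2 or 3, or either epiblast library. Nor was mt-Nd2 with quantile normalization (-0.76) and the ICM libraries in the fit (-0.96).

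Of 20 amino acid transport genes 8 were higher in diapaused ICM and 2 in epiblast (median 1.00), beside 16.3% and 17.7% of all genes. Carriers of the cationic amino acids arginine and lysine were split by gene: Slc7a2 was at 14.1, 10.9 and 12.8 against 0.253 and 0.427 and Slc7a1 at 15.6, 13.1 and 23.2 against 1.17 and 1.62, but Slc7a3 at 17.8, 3.95 and 8.47 against 73.8 and 95.1 (-3.15 ± 0.53, adjusted p = 0.00591). Of the glutamine carriers Slc38a2 was at 69.2, 60.99 and 113 against 32.6 and 33.2 (1.22 ± 0.32, adjusted p = 0.0265), and Slc38a1, at 21.4, 22.6 and 31.8 against 18.5 and 20.2, did not pass (adjusted p = 0.328). The leucine carrier gene Slc7a5 was at 19.98, 14.8 and 13.3 against 9.22 and 6.23 (0.97 ± 0.29, adjusted p = 0.0395), while its partner Slc3a2 overlapped, at 17.8, 6.96 and 9.75 against 9.2005 and 4.66. The amino acid transport list had 5 members higher in diapaused ICM and 1 in epiblast without epiblast replicate 1, and 5 and 1 without replicate 2. Slc38a2 (1.21 to 1.23) was not called without either epiblast library and Slc7a5 (0.72 to 1.22) with any 1 library left out. Nor was Slc38a2 with a common total (1.23); nor Slc7a5 with quantile normalization (0.86).

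Asns, the asparagine synthetase gene and a classic target of the stress factor ATF4, was at 181, 155 and 147 against 11.99 and 11.9 (3.64 ± 0.24, adjusted p = 0.000245). In the ATF4 and unfolded protein list, of which Asns is a member, 10 of 29 were higher in diapaused ICM and 0 in epiblast (median 0.55). The shares of all genes were 16.3% and 17.7%. Ddit3, the gene of CHOP, was at 83.5, 47.7 and 51.3 against 2.13 and 2.096 (4.27 ± 0.31, adjusted p = 0.000341), and Atf5 at 115, 58.2 and 107 against 10.1 and 8.26. Of 27 serine and folate genes 6 were higher in diapaused ICM and 8 in epiblast, beside 16.3% and 17.7% of all genes. Tdh, the threonine dehydrogenase gene on which mouse embryonic stem cells depend, was at 9.53, 3.59 and 7.46 against 1.099 and 1.34 (1.74 ± 0.37, adjusted p = 0.014). Phgdh, the entry enzyme gene of serine synthesis, was below 2 in all libraries and did not pass. The ATF4 counts were 10 and 1 without diapaused replicate 3. The serine and folate list had 2 members higher in diapaused ICM and 1 in epiblast without epiblast replicate 1, and 2 and 3 without replicate 2. Tdh (1.67 to 1.82) was not called without either epiblast library.

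Genes for making ribosomes and genes of the ribosome itself differed in opposite ways. Ribosome biogenesis genes were higher in epiblast at 17 of 62 and in diapaused ICM at 2 (1 with a common total), with a median of -0.46. Of all genes, 17.7% were higher in epiblast and 16.3% in diapaused ICM. Npm1, a nucleolar chaperone gene, was the most abundant transcript of epiblast, at 110352 and 85558 against 18268, 12629.7 and 14609 (-2.70 ± 0.21, adjusted p = 0.000489), and made up 9.71% and 8.41% of the summed values of the epiblast libraries. Processed copies of this gene could have shared its reads. Rrs1, a ribosome assembly gene, was at 8.51, 7.93 and 8.99 against 124 and 38.05. Of 80 cytosolic ribosomal protein genes 26 were higher in diapaused ICM and 2 in epiblast (5 with quantile normalization), with a median of 0.49. Rps21 was at 2470.5, 3037 and 1749 against 294 and 432 and Rpl12 at 4408, 5061 and 2399.5 against 588 and 775, and Rpl21 was the other way, at 348, 429 and 309 against 1205 and 772. These genes too have many near-identical copies. The ribosome biogenesis list had 0 members higher in diapaused ICM and 8 in epiblast without epiblast replicate 1, and 0 and 10 without replicate 2. The counts became 1 and 13 without diapaused replicate 3. The ribosomal protein list had 11 members higher in diapaused ICM and 0 in epiblast without epiblast replicate 1, and 14 and 4 without replicate 2. Rpl21 (-1.10) was not called without epiblast replicate 1.

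Of 32 heat shock chaperone genes 11 were higher in epiblast and 3 in diapaused ICM (median -0.42), and over the same 16626 genes 1 was higher in diapaused ICM without either epiblast library. Of all genes, 17.7% were higher in epiblast and 16.3% in diapaused ICM. Hsp90aa1, an HSP90 gene, was at 384, 469 and 516 against 4385 and 2735 (-2.93 ± 0.28, adjusted p = 0.000847) and Hspa4, of the HSP110 family, at 94.99, 86.9 and 154 against 877 and 827. The small heat shock genes went the other way, Hspb1 at 49.9, 30.9 and 42.96 against 3.52 and 2.28 (3.43 ± 0.30, adjusted p = 0.000621) and Hspb8 at 11.03, 12.9 and 25.99 against 2.26 and 2.39. Of the translation factors Eef2, the elongation factor gene, was higher in diapaused ICM, at 904, 799.8 and 951 against 204 and 266, and the initiation factor gene Eif2s1 in epiblast, at 14.3, 12.7 and 24.5 against 60.1 and 53.7. Eif2s1 (-1.64) was not called without epiblast replicate 1.

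Cell division genes were higher in epiblast. Of 47 genes of G2 phase and mitosis 26 were higher there and 2 in diapaused ICM, beside 17.7% and 16.3% of all genes. The list's median was -1.18. Mki67, the proliferation antigen gene, was at 7.75, 6.43 and 12.3 against 66.9 and 36.1 (-2.40 ± 0.37, adjusted p = 0.00445). Birc5, the survivin gene, was at 15.7, 28.5 and 33.1 against 218 and 141, and the checkpoint kinase gene Bub1 at 3.14, 3.44 and 3.79 against 17.9 and 23.3. The exceptions were Nusap1, a spindle gene, at 46.5, 84.9 and 43.4 against 16.3 and 16.8, and the securin gene Pttg1, at 36.9, 29.1 and 19.5 against 9.49 and 14.4, so mitotic transcripts were present in every diapaused library. The mitosis list had 0 members higher in diapaused ICM and 6 in epiblast without epiblast replicate 1, and 0 and 13 without replicate 2. They were 1 and 24 without diapaused replicate 1 and 1 and 22 without diapaused replicate 2. Nusap1 (1.67 to 1.71) was not called without either epiblast library and Pttg1 (0.89 to 1.45) without diapaused replicate 1 or 2, or either epiblast library. Nor was Pttg1 with quantile normalization (1.04).

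Replication genes were higher in epiblast at 13 of 49 and in diapaused ICM at 1, Tk1 (median -0.51), beside 17.7% and 16.3% of all genes. Rrm2, a subunit gene of the enzyme that makes deoxynucleotides, was at 9.59, 11.5 and 12.4 against 67.8 and 84.001 (-2.66 ± 0.25, adjusted p = 0.000804), and Fen1, a flap nuclease gene, at 0.217, 0.543 and 0.323 against 13.7 and 6.47 (-2.95 ± 0.34, adjusted p = 0.00155). The G1 cyclin genes Ccnd1, at 19.14, 4.73 and 9.77 against 65.1 and 50.7, and Ccne1, at 0.869, 1.197 and 1.15 against 8.61 and 9.16, belonged to the 7 of 22 G1 genes higher in epiblast. The replication list had 0 members higher in diapaused ICM and 3 in epiblast without epiblast replicate 1, and 0 and 4 without replicate 2. Its counts were 2 and 12 without diapaused replicate 1 and 0 and 10 without diapaused replicate 3. The G1 list had 0 members higher in diapaused ICM and 1 in epiblast without epiblast replicate 1, and 1 and 2 without replicate 2. Its counts were 2 and 6 without diapaused replicate 1 and 2 and 6 without diapaused replicate 2. Tk1 (0.83 to 1.03) was not called without diapaused replicate 3, or either epiblast library and Ccnd1 (-2.62 to -2.26) without either epiblast library. Nor was Tk1 with a common total (1.01).

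Inhibitors of the cell cycle showed the reverse balance, 6 of 18 higher in diapaused ICM and 2 in epiblast (median 0.50), beside 16.3% and 17.7% of all genes. Tob1, an antiproliferative gene, was at 81.6, 30.5 and 42.6 against 1.53 and 1.47 (4.27 ± 0.41, adjusted p = 0.000877). The CDK inhibitor genes were low: Cdkn1a was at 2.31, 2.96 and 3.72 against 0.292 and 0.0176, Cdkn1b at 2.701, 3.62 and 2.87 against 1.12 and 0.657, and the imprinted Cdkn1c, at 0.00675, 0.187 and 0.158 against 1.92 and 1.44, was higher in epiblast. Among MYC genes Mycn was at 5.61, 4.42 and 5.29 against 52.2 and 13.5 (-2.19 ± 0.51, adjusted p = 0.0192), with epiblast replicate 1 far above replicate 2, and the partner gene Max at 300.4, 176 and 247 against 64.1 and 57.7. The cell cycle inhibitor list had 4 members higher in diapaused ICM and 0 in epiblast without epiblast replicate 1, and 3 and 1 without replicate 2. Cdkn1b (0.93 to 1.29) and Cdkn1c (-1.39 to -1.13) were not called without either epiblast library and Mycn (-2.21 to -1.25) without diapaused replicate 3 or epiblast replicate 1.

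The catalytic DNA methyltransferase genes were higher in epiblast. Dnmt3b, a de novo enzyme gene, was at 13.5, 8.54 and 7.38 against 347 and 158 (-4.49 ± 0.41, adjusted p = 0.000735), Dnmt3a at 39.3, 68.996 and 80.7 against 295 and 225 (-2.08 ± 0.36, adjusted p = 0.00631) and the maintenance enzyme gene Dnmt1 at 9.98, 10.7 and 16.7 against 76.4 and 35.3. Dnmt3l, the gene of a cofactor of the de novo enzymes without catalytic activity of its own, went the other way, at 59.3, 65.1 and 60.2 against 10.4 and 10.7 (2.44 ± 0.22, adjusted p = 0.000773). So did Tet2, which encodes an enzyme that oxidizes methylated cytosine, at 17.2, 14.7 and 23.4 against 0.647 and 0.573, and Zfp57, a guardian of imprints, at 101, 50.5 and 66.6 against 2.79 and 3.21. In the whole list 5 of 23 were higher in diapaused ICM and 6 in epiblast, beside 16.3% and 17.7% of all genes. The DNA methylation list had 3 members higher in diapaused ICM and 2 in epiblast without epiblast replicate 1, and 3 and 5 without replicate 2. Dnmt3a (-1.88) and Dnmt1 (-1.47) were not called without epiblast replicate 1.

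The paralogs Ezh2 and Ezh1 were on opposite sides. Ezh2, the main H3K27 methyltransferase gene, was at 21.2, 34.95 and 35.2 against 76.2 and 61.6 (-1.18 ± 0.31, adjusted p = 0.0267) and its relative Ezh1 at 17.04, 11.2 and 8.76 against 4.0003 and 1.93 (1.75 ± 0.36, adjusted p = 0.012). The polycomb list had 7 of 29 higher in diapaused ICM and 3 in epiblast, beside 16.3% and 17.7% of all genes. Hdac2, a deacetylase gene, was at 227, 172 and 227 against 1557 and 1977 (-3.08 ± 0.25, adjusted p = 0.000509). Sirt2, which deacetylates tubulin and H4K16, was uneven in diapaused ICM, at 11.2, 153 and 68.3 against 2.76e-11 and 1.59, with a difference of 4.98 ± 1.00 (adjusted p = 0.0113). Kat8, the gene of the H4K16 acetyltransferase MOF, overlapped at 1.09, 1.83 and 3.86 against 3.38 and 2.59 and did not pass. Sirt1, at 9.19, 19.8 and 15.3 against 6.84 and 5.71, did not overlap and missed the threshold (adjusted p = 0.0501). The polycomb list had 2 members higher in diapaused ICM and 1 in epiblast without epiblast replicate 1, and 2 and 2 without replicate 2. They were 9 and 5 without diapaused replicate 1 and 4 and 4 without diapaused replicate 3. Ezh2 (-1.33 to -1.03) was not called without either epiblast library, Ezh1 (1.37) without epiblast replicate 2 and Sirt2 (4.29) without epiblast replicate 1. Nor was Ezh2 with a common total (-1.17).

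Imprinted genes were divided, 9 of 20 higher in epiblast and 5 in diapaused ICM (median -1.10), beside 17.7% and 16.3% of all genes. Grb10, an adaptor gene that restrains insulin signalling, was at 1.35, 1.01 and 2.42 against 39.6 and 36.2 (-3.94 ± 0.29, adjusted p = 0.000371), and Snrpn at 2.59, 2.79 and 4.93 against 24.6 and 39.3. Igf2r, the receptor gene that clears IGF2, was at 19.7, 17.4 and 21.4 against 3.19 and 4.44 (2.10 ± 0.24, adjusted p = 0.00156). Xist, the RNA of the inactive X chromosome, overlapped at 99.99, 60.1 and 41.5 against 76.01 and 45.2 and did not pass. Although the labels describe the samples as female, the Y-linked gene Eif2s3y was at 10.8, 9.98 and 17.4 against 25.3 and 25.9, and thus present in every pool. It was 1 of the 5 Y-linked genes tested, which gave 1 call in each direction. The imprinted gene list had 4 members higher in diapaused ICM and 4 in epiblast without epiblast replicate 1, and 3 and 4 without replicate 2. Eif2s3y (-1.01 to -0.85) was not called without diapaused replicate 1 or 2, or either epiblast library. Nor was Eif2s3y with rescaling without the abundant genes (-1.004) and a common total (-0.97).

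Extracellular matrix genes were mostly higher in diapaused ICM. Of 24 tested 16 were higher in diapaused ICM and 0 in epiblast, beside 16.3% and 17.7% of all genes, with a median of 2.59. Without 1 or the other epiblast library, 15 and 14 were higher in diapaused ICM. Lama1, a laminin chain gene of the embryonic basement membrane, was at 63.8, 56.9 and 63.3 against 0.143 and 0.217 (5.72 ± 0.22, adjusted p = 8.44e-05), and Sparc, a collagen binding protein gene, at 1365, 1294 and 1515 against 32.7 and 22.2 (5.63 ± 0.26, adjusted p = 0.000112). Both also belong to the primitive endoderm list, of which 16 of 21 were higher in diapaused ICM and 2, Fst and Cited1, in epiblast (median 2.58). Its transcription factor gene Gata4 was at 11.2, 9.22 and 10.8 against 0.549 and 0.511 (2.90 ± 0.22, adjusted p = 0.000434) and its receptor gene Pdgfra at 41.9, 40.3 and 33.5 against 0.121 and 0.114, while Gata6, at 1.42, 1.55 and 2.02 against 0.596 and 0.088997, and Sox17, at 0.982, 1.52 and 1.34 against 0.0506 and 0.0782, were low. The matrix list moved with the primitive endoderm markers, which is partly set by the members they share, Lama1 and Sparc among them. The part of primitive endoderm in the matrix list was not tested. The primitive endoderm list had 12 members higher in diapaused ICM and 1 in epiblast without epiblast replicate 1, and 13 and 1 without replicate 2. Cited1 (-2.17 to -1.95) was not called without either epiblast library and Gata6 (0.73 to 1.28) with any 1 library left out. Nor was Cited1 with a pseudocount of 0.1 (-3.38); nor Gata6 with a pseudocount of 5 (0.32), quantile normalization (0.99), rescaling without the abundant genes (1.02) and a common total (0.99).

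Of 22 cell contact genes 4 were higher in diapaused ICM and 6 in epiblast, beside 16.3% and 17.7% of all genes. The desmosome genes Dsg2, at 22.9, 13.7 and 18.6 against 2.51 and 1.62, and Jup, at 25.2, 14.7 and 22.4 against 1.91 and 2.97, were higher in diapaused ICM, whereas Epcam, an adhesion gene of epithelia, was at 25.7, 24.7 and 35.7 against 114 and 73.7. Of the trophectoderm and extraembryonic ectoderm markers Cdx2 did not pass, at 0.0995, 0.531 and 0.901 against 2.16 and 1.58 (adjusted p = 0.0736). Gata3, at 9.202, 4.81 and 11.2 against 1.32 and 0.706, was higher in diapaused ICM and Krt19, at 0.0152, 0.361 and 0.885 against 6.94 and 6.37, in epiblast. The cell contact list had 3 members higher in diapaused ICM and 2 in epiblast without epiblast replicate 1, and 3 and 4 without replicate 2. Epcam (-1.35) was not called without epiblast replicate 1.

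**Figure D5:**
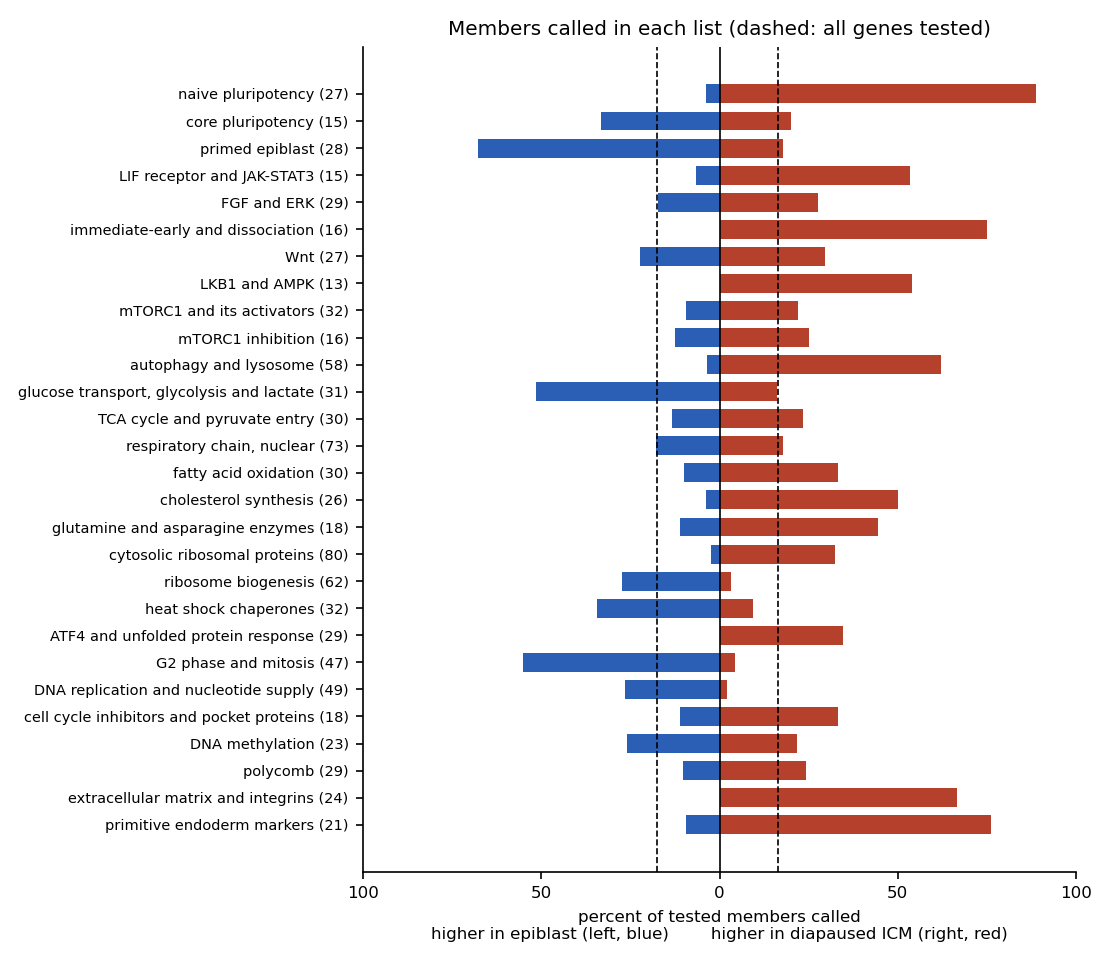
Percent of tested members of 28 gene lists (number tested in parentheses) called higher in diapaused ICM, to the right, and higher in epiblast, to the left. The dashed lines mark 16.3% and 17.7%, the shares of all 16626 genes. Naive, immediate-early, matrix and primitive endoderm lists extend farthest right, and primed, mitosis and glycolysis lists farthest left.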

How the data were processed

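Transcript levels of 3 libraries of diapaused ICM and 2 of epiblast were used, grouped by their labels. The values that the authors deposited are a signal per gene, named adjusted TPM in the file headers; the columns do not share a total, and no source used here states the adjustment, the quantification program or the annotation. The submitters' processing notes name Bowtie 0.12.5, DESeq and mm9 without their roles. Genes with at least 1 in at least 2 of the 5 libraries were tested on log2(value + 1) with limma 3.58.1 in R 4.3.3, two-sided, with a variance trend, no covariate and Benjamini-Hochberg adjustment over 16626 genes (3 residual and 3.91 prior degrees of freedom). A call is an adjusted p under 0.05. The fit's estimates of differences were checked on simulated data, where false calls were counted without a limit set on them.

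The 60 gene lists (1400 tested members) and the rule for named genes were chosen with earlier results of these data known, and support nothing by themselves. Named genes are the 12 highest and 12 lowest differences among called genes with a mean of at least 10, up to 3 called members per list and direction, and a fixed set. Krt18, Rhox5, the undetected markers and the genes chosen by motif fall outside it, and some genes the rule gives are not reported here. Motifs were matched by symbol to RefSeq promoters of GRCm38.p6. Alternatives changed the pseudocount, filter, scaling, variance trend, groups fitted, replicate block, minimum fold and libraries.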

Additional observations from a re-analysis of the deposited data

How the results depend on the processing

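No called gene named here changed sign under any alternative run. Without a filter on low values 2630 genes were called, 1222 higher in diapaused ICM and 1408 in epiblast. A minimum fold of 1.5 in the test left 2178, 1209 and 969. The other pseudocounts, filters, scalings and variance settings, and the fit with the ICM libraries added, kept all 3 counts within 1.5 times, and no scaling moved the median of all genes by over 0.1. With 1 library left out in turn the calls numbered 1718 to 5141, those higher in diapaused ICM 1063 to 2691 and those higher in epiblast 655 to 2450, with the lowest values without epiblast replicate 1. Over the same genes 1480, 790 and 690 were called without it and 2265, 1050 and 1215 without replicate 2. With the replicate number as a block 3933 genes were called, 2090 higher in diapaused ICM and 1843 in epiblast. Of 201 genes named here and tested, testing without a filter, the minimum fold and the block left 65, 40 and 21 uncalled that had passed. The deviations of same-numbered libraries from their group means correlated at -0.00278 and 0.0365, and the labels tie nothing to the numbers. The depth is unknown, and with 2 epiblast libraries small differences could not be detected.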

Other observations

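Some lists that the comparison above did not describe held genes with large differences. Of 17 tetraspanin genes, membrane proteins that organise other receptors, 7 were higher in diapaused ICM and 4 in epiblast, beside 16.3% and 17.7% of all genes. Cd151, which partners laminin-binding integrins, was at 20.3, 15.5 and 9.86 against 2.18 and 1.28 (2.54 ± 0.34), while Tspan7 was nearly absent from diapaused ICM, at 0.193, 0.0256 and 0.0639 against 50.1 and 32.4 (-5.24 ± 0.27, adjusted p = 0.000154). Of the genes for antigen presentation B2m, the light chain gene of MHC class I, was at 57.2, 93.6 and 56.2 against 7.35 and 11.4 (2.74 ± 0.33, adjusted p = 0.00178), whereas the heavy chain gene H2-K1 was at 3.34, 4.14 and 4.51 against 13.8 and 7.81. The immunoproteasome genes were on both sides as well: Psmb9 was at 32.7, 50.1 and 11.1 against 2.19 and 2.36 and Psmb10 at 0.512, 0.0211 and 0.198 against 5.17 and 4.12. The tetraspanin list had 3 members higher in diapaused ICM and 1 in epiblast without epiblast replicate 1, and 3 and 1 without replicate 2. H2-K1 (-0.82) and Psmb9 (3.04) were not called without epiblast replicate 1.

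Histone genes differed by kind. Among variants H2afy, the gene of macroH2A, was at 25.3, 25.2 and 27.9 against 4.02 and 4.295 (2.39 ± 0.22, adjusted p = 0.000782), and H3f3a, which encodes H3.3, at 58.2, 43.7 and 51.8 against 425 and 191 (-2.46 ± 0.37, adjusted p = 0.00402). Replication-linked histone genes were higher in diapaused ICM at 13 of 23 and in epiblast at 2, beside 16.3% and 17.7% of all genes. The 2 were the linker histone genes Hist1h1a and Hist1h1e. The core histone genes were uneven, as in Hist1h3c at 24.4, 179 and 119 against 11.5 and 13.5, and have near-identical copies. Whether histone transcripts were captured alike in both groups was not tested. Genes of the oocyte and cleavage stages included Pramel7, a naive cell gene, at 36.5, 13.98 and 13.1 against 0.589 and 0.7196 (3.59 ± 0.44, adjusted p = 0.00188). The histone list had 0 members higher in diapaused ICM and 1 in epiblast without epiblast replicate 1, and 5 and 1 without replicate 2. They were 5 and 2 without diapaused replicate 2 and 6 and 2 without diapaused replicate 3. Hist1h3c (2.04 to 2.72) was not called without diapaused replicate 2 or 3, or either epiblast library. Nor was Hist1h3c with a pseudocount of 5 (2.33).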
